A study of Mus musculus with 11 samples.

Results

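The comparison described here set PD-L1high beta cells against untreated control beta cells, across all genes. Pancreatic islets of C57BL/6 mice, which in the study's methods were C57BL/6JRj males of 12 weeks, were cultured for 20 h without IFNγ (control) or with 50 pg/mL of IFNγ. Beta cells were then sorted by flow cytometry as cells with EpCam and CD71 and little CD24, and those of treated islets were divided into PD-L1high and PD-L1low cells. RNA-seq gave 4 control, 4 PD-L1high and 3 PD-L1low libraries, and the comparison set the 4 control against the 4 PD-L1high libraries in a model fitted to all 11, whose estimate of the spread includes the PD-L1low libraries. Control cells were not exposed to IFNγ and were not selected for high PD-L1, so the treatment and the PD-L1 sort cannot be told apart in this contrast. Of 55487 genes in the files, 16252 passed a filter on low counts and were tested. The words rose and fell are used where the adjusted p was under 0.05 in edgeR's quasi-likelihood test, with the replicate number as a block in the model. Levels are given as CPM, rounded expected counts scaled to library sizes adjusted by TMM normalization, unless TPM, which accounts for transcript length, is named.

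IFNγ is a cytokine made mainly by T and natural killer cells, and it acts through a receptor of paired IFNGR1 and IFNGR2 chains that activates the kinases JAK1 and JAK2. Their signal reaches GAS elements in promoters and induces IRF1, which in turn acts at ISRE elements, so that antigen presentation, guanylate-binding proteins, immunity-related GTPases and checkpoint ligands such as PD-L1 (Cd274) are switched on. In beta cells the cytokine is studied for its part in type 1 diabetes, together with the stress and death programmes that combinations of cytokines can set off.

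The libraries held 10422018 to 15810769 expected counts, and mitochondrial genes took 7.12% to 13.3% of the counts of control libraries and 5.55% to 11.9% of those of PD-L1high libraries. The 8 beta cell markers checked summed to 110200 to 252200 TPM in control and 177300 to 249200 TPM in PD-L1high libraries. Among other endocrine cells, alpha markers summed to 334.8 to 1701 TPM in control and 825.5 to 2018 TPM in PD-L1high libraries. The pair of PP cell markers reached 389.9 to 1345 TPM against 933.9 to 2242 TPM, with 79.25 to 118 TPM in PD-L1low cells. Delta markers gave 57.33 to 140.3 TPM against 93.38 to 248.6 TPM, and duct markers 135.4 to 257.9 TPM against 136.1 to 557.1 TPM. The 9 immune markers summed to at most 4.04 TPM in control and 6.04 TPM in PD-L1high libraries, with 6 of the 9 at 0 in all 8 libraries. Acinar, endothelial and stellate markers did not exceed 2 TPM in sum and the 4 erythroid markers were at 0. The part of these other cell types in the results below was not tested, and in bulk RNA a larger share of cells expressing a gene and more RNA per cell cannot be told apart.

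Between PD-L1high and control beta cells 153 genes rose, 0.941% of those tested, and 8 fell, 0.0492%. All 153 were higher in all 4 pairs of libraries with the same replicate number and the 8 were lower in all 4. The genes were called on these same libraries with that number as a block, so this agreement is no separate support. The median log2 fold change of all tested genes was -0.02. Of the risen genes, 96 were on the interferon lists used here and 57 were on none of them. These lists hold genes of the pathway, such as Jak1, as well as genes that it induces. They were chosen with earlier results of these data known. The 96 had a median log2 fold change of 2.49, with 88 changed at least 2-fold, whereas the 57 had a median of 0.95 (0.49 to 9.38), with 27 changed at least 2-fold and 30 by less. The number on no list was 109 without control replicate 2, and 34, 29 and 30 without PD-L1high replicate 2, control replicate 3 or PD-L1high replicate 3. Summed over the 57 genes, levels ran from 2528 to 3204 CPM in control, from 2856 to 3196 CPM in PD-L1low and from 4944 to 5575 CPM in PD-L1high libraries. The 57 were chosen for being higher in PD-L1high than in control libraries, so the height of the PD-L1high sums follows from that choice.

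**Figure D1:**
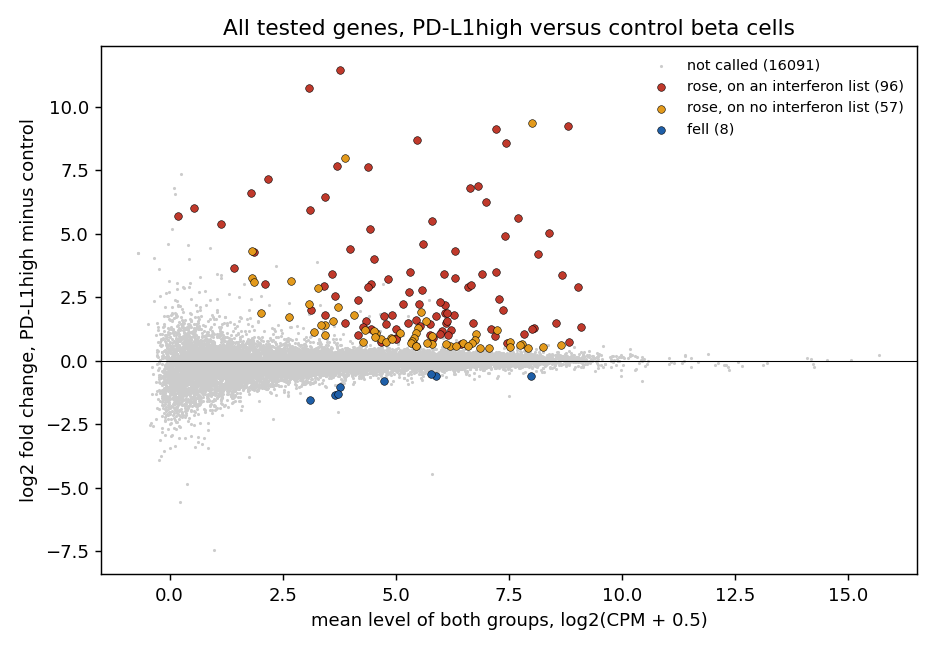
Log2 fold change (PD-L1high minus control) of each tested gene against its mean level in both groups, log2(CPM + 0.5), with called genes coloured by class. The 57 risen genes on no interferon list (orange) lie mostly lower than the 96 on a list (red), and the 8 fallen genes (blue) lie between -1.53 and -0.52.

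On the interferon lists, 96 of 188 tested genes rose and none fell by edgeR, DESeq2 or limma-voom (130 were higher and 1 lower at an unadjusted p under 0.05 in edgeR), with a median log2 fold change of 1.48. All 14 immunity-related GTPases tested and all 10 guanylate-binding proteins rose, as did 10 of 13 genes of antigen processing, 8 of 13 of MHC class I and 6 of 7 of the PARP family. On the remaining lists 21 of 45 antiviral effectors, 5 of 13 chemokines, cytokines and checkpoint ligands, 3 of 8 interferon regulatory factors and transactivators, 3 of 10 nucleic acid sensors, 4 of 11 TRIM genes, 3 of 8 induced enzymes and 1 of 7 complement and secreted proteins rose. The sort gene Cd274 stood at 25.1, 20.9, 15.1 and 20.3 CPM in the control and at 205, 279, 214 and 172 CPM in the PD-L1high libraries, and it encodes the protein on which treated cells were divided. Iigp1, an immunity-related GTPase, stood at 7.68, 0.15, 0 and 0.54 CPM in control and at 706, 1144, 979 and 759 CPM in PD-L1high libraries. Control replicate 1 held most of the control reads of this gene. Gm12250 and Gm4841, of the same GTPase family, had no read in any control library and 813 and 1333 reads over the 4 PD-L1high libraries. The 20 risen genes with the largest fold change and at least 10 CPM in PD-L1high cells were Gm4841, Gm12250, BC023105, Iigp1, Tgtp2, F830016B08Rik, Tgtp1, Gm43302, Gm12185, 9930111J21Rik2, Gbp4, Gbp10, Ifi47, Gbp2, Zbp1, Igtp, Gbp9, Gbp11, Gbp6 and Irgm2, and all but BC023105 and Gm43302 are on an interferon list. Where members of a GTPase family among them are near-identical, their reads can be divided differently among those members by the counting.

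The receptor chains and their kinases were not called. The receptor genes Ifngr1 (log2 fold change 0.31, SE 0.19) and Ifngr2 (0.16, SE 0.36) and the kinase genes Jak1 (0.07, SE 0.11) and Jak2 (0.35, SE 0.12) did not pass the edgeR threshold, with adjusted p values of 0.749, 0.951, 0.921 and 0.386. On the list of receptor and JAK-STAT genes 4 of 23 rose and the median was 0.21. Ciita, the transactivator of MHC class II, was between 0.30 and 1.16 CPM in control and between 0.52 and 1.99 CPM in PD-L1high libraries and was not called (edgeR adjusted p = 0.916), while its MHC class I counterpart Nlrc5 stood at 8.45, 2.10, 1.39 and 1.16 CPM in control and at 46.3, 44.0, 41.5 and 34.1 CPM in PD-L1high libraries. For Nlrc5 the groups did not overlap, and its log2 fold change was 3.99 (SE 0.39, edgeR adjusted p = 0.00047). Of the 6 MHC class II genes tested 4 rose, namely H2-Aa, Cd74, H2-DMb1 and H2-Ab1, all at low levels and the last 2 with 1 read each over the 4 control libraries.

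Promoter sequences bear on these classes, since GAS and ISRE elements are short. RefSeq promoter windows (GRCm38.p6, 250 bases before to 50 after a start) were matched by symbol for 68 of the 96 interferon-list genes, 43 of the 57 on no list, 4 of the 8 that fell and 10499 of the 16252 tested. They were searched for TTCNNNGAA (GAS) and GAAANNGAAA (ISRE) on both strands, and a GAS match may overlap an ISRE match. Either motif stood in 44.58% of the 83 windows of risen interferon-list genes, in 28.57% of the 56 windows of risen genes on no list, in none of the 4 windows of fallen genes and in 9.53% of the 13457 windows of all tested genes. The ISRE was found in 39.76%, 17.86%, none and 3.02% of these windows and the GAS motif in 20.48%, 10.71%, none and 6.87%. Both motifs stood in 15.66% of the interferon-list windows, in none of those of the 57 genes and in 0.36% of those of all tested genes. A match is a description of the letters and not of a bound site.

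Stretches of 80 bases are shown for risen genes with a match, 5′ to 3′ on the gene's strand, with matched letters in capitals. Of the 6 risen genes with the smallest p and a window, Igtp, Irgm1 and H2-T23 had a match, and Cd274, Tap1 and Tnfsf10 had none before the start. The other 6 are the risen genes on no interferon list with the smallest p and a match before the start, a choice made after their values were seen. Apobec3, Snx10 and Sv2b have 2, 3 and 4 windows, and only 1 window of each held a match before the start.
Igtp (chr11:58199472-58199551, plus strand, GAS and ISRE): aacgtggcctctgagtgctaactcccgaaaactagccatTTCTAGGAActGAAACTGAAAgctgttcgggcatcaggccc
Irgm1 (chr11:48871421-48871500, minus strand, overlapping ISRE): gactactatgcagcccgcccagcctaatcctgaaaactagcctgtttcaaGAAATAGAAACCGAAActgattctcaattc
H2-T23 (chr17:36032796-36032875, minus strand, ISRE): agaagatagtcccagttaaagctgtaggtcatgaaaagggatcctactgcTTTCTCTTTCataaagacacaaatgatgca
Serpinb9 (chr13:33004445-33004524, plus strand, ISRE): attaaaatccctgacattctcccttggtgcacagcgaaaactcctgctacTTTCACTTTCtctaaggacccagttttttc
Apobec3 (chr15:79892218-79892297, plus strand, ISRE): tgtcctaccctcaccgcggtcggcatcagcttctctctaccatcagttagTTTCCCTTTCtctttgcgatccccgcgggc
Snx10 (chr6:51524180-51524259, plus strand, ISRE): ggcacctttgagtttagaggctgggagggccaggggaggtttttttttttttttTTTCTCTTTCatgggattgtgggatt
Tmem140 (chr6:34863033-34863112, plus strand, ISRE): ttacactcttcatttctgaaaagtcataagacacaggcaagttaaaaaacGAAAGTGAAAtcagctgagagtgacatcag
Tnfrsf14 (chr4:154928112-154928191, minus strand, ISRE): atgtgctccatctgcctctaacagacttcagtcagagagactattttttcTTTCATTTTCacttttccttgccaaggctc
Sv2b (chr7:75302780-75302859, minus strand, ISRE): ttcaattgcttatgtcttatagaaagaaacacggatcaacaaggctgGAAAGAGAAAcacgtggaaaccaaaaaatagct

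The 57 risen genes on no interferon list are described by role, in groups formed after their values were seen. Absence from the lists is a property of the lists and does not say that IFNγ is not known to act on a gene. The first group is that of cell surface and secreted proteins. Pigr, the receptor that carries polymeric immunoglobulins across epithelia, had the smallest p of the 57. Its level was 20.6, 19.8, 16.7 and 19.6 CPM in control and 103, 64.9, 62.5 and 65.6 CPM in PD-L1high libraries. The groups did not overlap, PD-L1high replicate 1 stood above the other three, and the log2 fold change was 1.92 (SE 0.15, edgeR adjusted p = 1.7e-06). Tnfrsf14, the herpesvirus entry mediator of the TNF receptor family, stood at 5.12, 4.95, 5.56 and 7.17 CPM in control and at 13.2, 15.3, 14.7 and 17.0 CPM in PD-L1high libraries, without overlap (1.41, SE 0.21, edgeR adjusted p = 0.0014). Cd47, a surface ligand that restrains phagocytosis, changed less. Its level ran from 221 to 277 CPM in control and from 340 to 381 CPM in PD-L1high libraries (0.56, SE 0.11). Fgl2, a secreted fibrinogen-like protein, ran from 61.6 to 109 CPM against 118 to 131 CPM (0.69, SE 0.14), and the secreted protease inhibitor Serpina10 from 107 to 168 CPM against 210 to 263 CPM (0.74, SE 0.11).

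Genes of cell death formed the next group and included both effectors and inhibitors. Serpinb9, an intracellular inhibitor of granzyme B, stood at 23.04, 30.3, 24.9 and 25.8 CPM in control and at 53.4, 68.5, 61.5 and 69.1 CPM in PD-L1high libraries. No library of either group came near the other, and the log2 fold change was 1.28 (SE 0.12, edgeR adjusted p = 7.4e-06). Mlkl, the pore-forming effector of necroptosis, stood at 3.10, 2.70, 2.42 and 2.78 CPM in control and at 14.6, 14.3, 11.5 and 12.1 CPM in PD-L1high libraries. Every PD-L1high library was above every control library, with a log2 fold change of 2.25 (SE 0.26, edgeR adjusted p = 0.00011). Ripk2, a kinase downstream of NOD receptors, ran from 12.1 to 16.1 CPM against 20.7 to 51.0 CPM (1.12, SE 0.18), and the BAX-binding protein gene Sh3glb1 from 131 to 157 CPM against 199 to 237 CPM (0.56, SE 0.10). Arel1, an E3 ligase that degrades antagonists of IAP proteins, ran from 53.9 to 77.2 CPM against 104 to 122 CPM (0.70, SE 0.11).

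A further group belonged to endosomes and lysosomes. Ly75 (DEC-205), an endocytic receptor known from dendritic cells, stood at 3.41, 6.82, 5.13 and 3.94 CPM in control and at 20.4, 22.6, 19.8 and 20.2 CPM in PD-L1high libraries. The PD-L1high libraries were close to each other and far from the control libraries (2.13, SE 0.22, edgeR adjusted p = 3.9e-05). Snx10, a sorting nexin of endosomes, stood at 110, 109, 67.8 and 77.7 CPM in control and at 244, 177, 218 and 200 CPM in PD-L1high libraries, also without overlap (1.21, SE 0.15, edgeR adjusted p = 0.00026). Rab7, the GTPase of late endosomes, was the most abundant of the group, with mean levels of 159.3 TPM in control and 265.9 TPM in PD-L1high cells. Its log2 fold change was 0.64 (SE 0.12, edgeR adjusted p = 0.016). The intramembrane protease gene Sppl2a (0.61), the cathepsin gene Ctso (0.52) and Unc93b1, which brings Toll-like receptors to endosomes (0.75), rose by similar log2 steps. Mpeg1, the perforin-2 gene of phagocytes, rose from 0.24 to 2.33 CPM to 3.85 to 6.68 CPM, a level at which few reads support each value.

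Several risen genes serve protein turnover and metabolism. Pomp, the chaperone that assembles the proteasome core, stood at 30.9, 35.5, 34.4 and 37.1 CPM in control and at 52.9, 50.0, 62.0 and 43.4 CPM in PD-L1high libraries. All 4 PD-L1high libraries were higher, but the adjusted p in edgeR was close to the threshold (0.59, SE 0.13, adjusted p = 0.0486). The exchangeable immunoproteasome subunits Psmb8, Psmb9 and Psmb10, which are on an interferon list, rose by 2.81, 2.93 and 2.24 on the log2 scale, and the subunits they replace in the constitutive proteasome, Psmb5, Psmb6 and Psmb7, gave 0.35, 0.20 and 0.06 without a call. Nub1, which targets NEDD8 and FAT10 conjugates to the proteasome (0.58), and the ubiquitin ligase genes Rnf114 (0.60) and Rnf14 (0.49) rose as well. Ppa1, the cytosolic pyrophosphatase, stood at 30.4, 40.2, 39.1 and 39.05 CPM in control and at 79.8, 70.9, 79.4 and 62.4 CPM in PD-L1high libraries. The groups did not overlap (0.98, SE 0.13, edgeR adjusted p = 0.00065). Other enzyme genes that rose were Pla2g16, a phospholipase (1.22), Idnk, a gluconate kinase (1.18), B3gnt3, a glycosyltransferase (0.76), Kars, the lysyl-tRNA synthetase (0.68), and Enpp4, a nucleotide hydrolase (0.60).

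Genes of transcription, antiviral defence and other functions completed the protein-coding part. Nfkb2, the precursor of the p52 subunit of NF-kB, stood at 7.45, 7.50, 5.74 and 5.73 CPM in control and at 21.3, 12.6, 13.9 and 8.20 CPM in PD-L1high libraries, and PD-L1high replicate 4 came within 1 CPM of control replicate 2 (1.02, SE 0.22, edgeR adjusted p = 0.039, and 0.122 without the replicate block). Creb3, a membrane-bound transcription factor (0.69), and the Mediator subunit gene Med28 (0.68) rose without overlap of the groups. Among genes with known antiviral roles, Apobec3 (1.11), Samd9l (1.05) and Ddx60 (1.56) rose with overlapping groups, and without the replicate block none of the 3 was called (edgeR adjusted p = 0.427, 0.158 and 0.202). In all 3 control replicate 1 was the highest control, with 53.6 CPM of Ddx60 and 123 CPM of Samd9l beside 16.3 to 21.4 CPM and 53.5 to 60.6 CPM in the other control libraries. Cenpj, a centriole protein gene, ran from 23.8 to 32.2 CPM against 48.5 to 65.7 CPM (1.08, SE 0.13), and Tmem140, a membrane protein gene, from 5.32 to 11.3 CPM against 22.7 to 27.8 CPM (1.80, SE 0.23). Sv2b, a synaptic vesicle protein gene, rose by 0.95 and Rapgef5, an exchange factor for RAP GTPases, by 1.15. The remaining coding genes of known symbol were Plekha2, Vwa5a, Rmdn3, Ogfr, Ccdc25, Clic5, Shisal2b, Aida and Tmtc1, with log2 fold changes between 0.52 and 0.92.

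**Figure D2:**
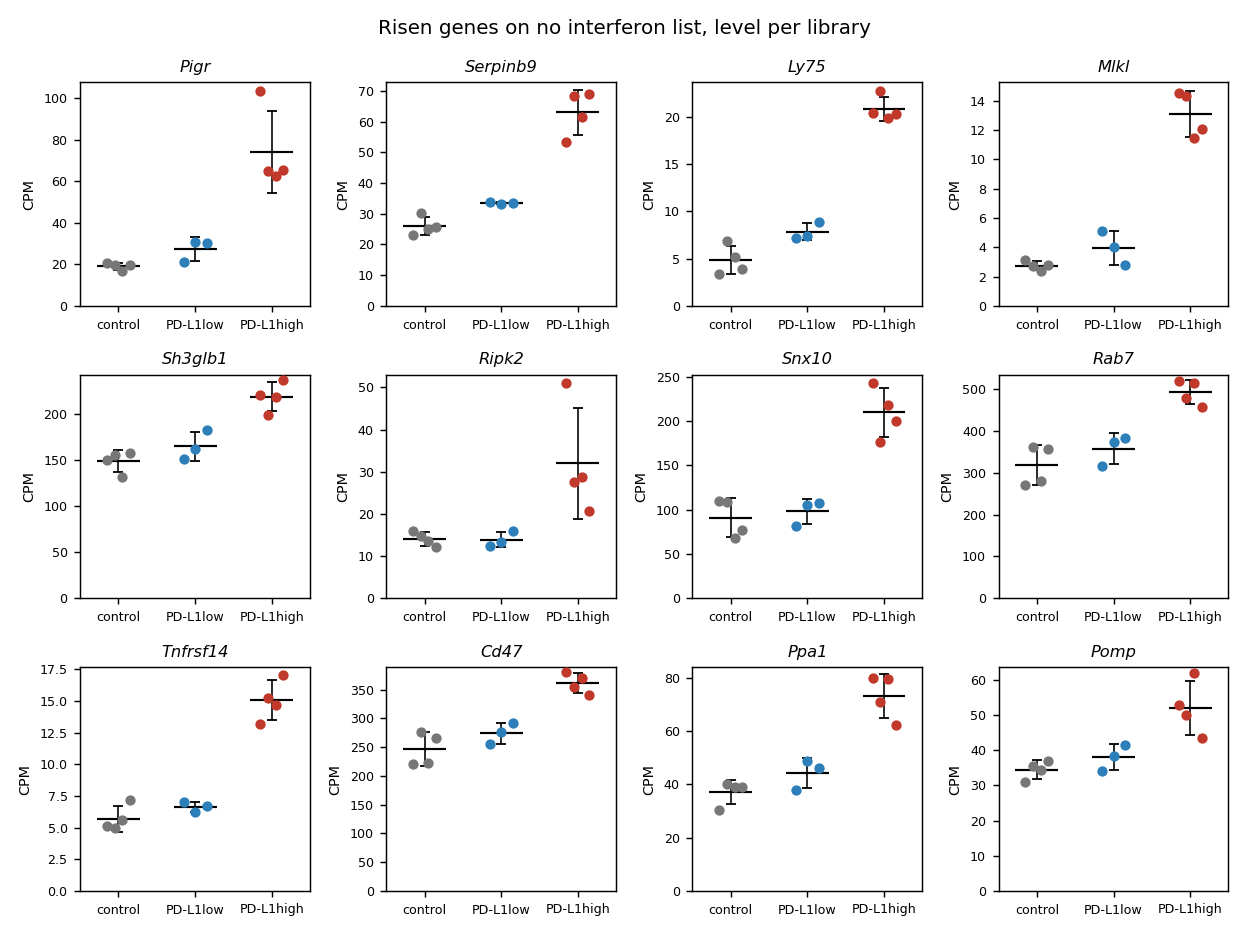
CPM per library (points) of 12 risen genes on no interferon list in 4 control, 3 PD-L1low and 4 PD-L1high libraries, with the mean (line) and SD (bar) of each group and the axis from 0. In each panel the 4 PD-L1high libraries lie above the 4 control libraries, by a wide gap for Ly75 and Mlkl and a narrow one for Pomp and Ripk2.

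Ppy, which encodes the hormone of PP cells, was among the 57. It stood at 95.7, 273, 168 and 147 CPM in control and at 169, 431, 243 and 234 CPM in PD-L1high libraries of replicates 1 to 4, so that the groups overlapped although each pair rose. Its log2 fold change of 0.67 (SE 0.10, edgeR adjusted p = 0.0018) was called only with the replicate number as a block, and without it the adjusted p was 0.913. In PD-L1low cells it was at 20.8, 15.6 and 14.04 CPM, below all control libraries. The glucagon gene Gcg (0.58, SE 0.27, edgeR adjusted p = 0.681) and the somatostatin gene Sst (0.78, SE 0.27, edgeR adjusted p = 0.435) did not pass the test against control.

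Some of the 57 could not be separated from neighbouring interferon genes. AC119228.1 lies antisense to Cd274, Gm17334 overlaps Irf1 and 9330175E14Rik overlaps Nlrc5 on the opposite strand, and whether the counting used strand is not given in the sources used here. Gm43302 shares its strand and positions with Gbp6 and Gbp10, D730005E14Rik overlaps Apobec3, and Gm11131 overlaps H2-Q4. BC023105, annotated as a processed pseudogene 49131 bp from Iigp1, stood at 3.02, 0.07, 0.06 and 0.27 CPM in control and at 426, 606, 560 and 476 CPM in PD-L1high libraries. That pattern across libraries resembles that of Iigp1, and Gm5431 lies 2442 bp from the GTPase gene Gm12185. Levels of these genes are therefore uncertain, as reads may be shared. AW112010, a long noncoding RNA gene apart from them, ran from 0.48 to 2.79 CPM against 4.57 to 20.3 CPM (3.15, SE 0.42, edgeR adjusted p = 0.00053).

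PD-L1low cells, which share the PD-L1high libraries' treatment, give a second set of values for the same genes. In PD-L1high versus PD-L1low cells 0.64% of tested genes were higher and 0.0923% lower, and 21 of the 57 were higher by this test. The 2 comparisons share the PD-L1high libraries and are given side by side only. Pigr stood at 20.9, 31.0 and 30.5 CPM, Serpinb9 at 33.9, 33.1 and 33.5 CPM and Mlkl at 5.13, 3.99 and 2.81 CPM in PD-L1low libraries, all below the PD-L1high range. Tmem140 was at 10.1, 4.88 and 5.69 CPM and Pla2g16 at 10.8, 12.7 and 9.06 CPM, within the range of their control levels or next to it.

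Stress genes beyond the interferon lists were taken from 10 lists with 231 genes, of which 205 were tested. In edgeR 3 rose, among them Mlkl and Nfkb2, and none fell (7 and 0 in DESeq2, 12 and 3 in limma-voom), and the median log2 fold change was 0.10. At an unadjusted p under 0.05, which 4.13% and 3.52% of all tested genes reached upward and downward (7.65% in either direction), 26 of the 205 were higher and 6 lower. For 157 of the 205 the 95% confidence interval lay inside 2-fold in both directions, as it did for 10165 of all 16252 tested genes. Of the 3 risen genes, Mlkl alone was called when control replicate 1 or 3 or PD-L1high replicate 1, 2 or 3 was left out, and 6 stress genes rose without control replicate 2.

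None of the 23 genes of ER chaperones and the unfolded protein response and none of the 24 of the integrated stress response reached even an unadjusted p of 0.05, with medians of 0.07 and 0.11. For 22 and 23 of them the interval lay inside 2-fold, as it did for 10165 of all 16252 tested genes. Hspa5, the main ER chaperone, ran from 768 to 1406 CPM in control and from 1041 to 1266 CPM in PD-L1high libraries (0.10, 95% confidence interval -0.17 to 0.37). Atf4, the transcription factor of the integrated response, gave 0.12 with an interval of -0.11 to 0.35. The lists of 14 heat shock and 17 p53 genes likewise held no gene at that level. Among 32 genes of oxidative stress and metal handling, 8 were higher at an unadjusted p under 0.05 and none passed adjustment in edgeR. They were Gclm (0.47), Hmox1 (0.81), Keap1 (0.41), Mt1 (0.38), Mt2 (0.52), Gpx1 (0.32), Gsr (0.32) and Txnrd1 (0.28), of which Gclm makes glutathione, Hmox1 degrades haem, and Keap1 restrains the factor NRF2. Hmox1 stood at 43.0, 61.3, 59.6 and 61.4 CPM in control and at 166, 68.8, 97.9 and 83.6 CPM in PD-L1high libraries, apart in all libraries but with an adjusted p of 0.347 in edgeR, and was called by DESeq2 and by limma-voom.

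Of 25 cell death genes 2 rose and 9 in all were higher at an unadjusted p under 0.05, with a median of 0.26. Casp1, the inflammasome caspase, stood at 0.23, 0.52, 0.06 and 0.18 CPM in control and at 4.06, 2.62, 1.26 and 3.63 CPM in PD-L1high libraries, without overlap but just outside the threshold (3.44, SE 0.81, edgeR adjusted p = 0.0698). It was called by DESeq2 and by limma-voom. On the NF-kB list 1 of 18 rose, 7 were higher at an unadjusted p under 0.05 and the median was 0.66. Values for the feedback inhibitor Tnfaip3 were 6.67, 5.17, 6.22 and 4.39 CPM in control and 31.6, 24.7, 13.1 and 3.22 CPM in PD-L1high libraries, so that PD-L1high replicate 4 lay below every control library. The inhibitor Nfkbia was likewise lowest in PD-L1high replicate 4, at 10.1 CPM beside 26.6 to 51.2 CPM in the other PD-L1high libraries. Without PD-L1high replicate 4, Tnfaip3 and Birc3 were called and the stress lists held 4 risen genes.

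On the list of immediate early genes the median was -0.31, 15 of 20 were lower (8610 of all 16252 tested genes were) and 4 were lower at an unadjusted p under 0.05, none of them after adjustment in edgeR. Nr4a1, a nuclear receptor induced by depolarization, stood at 10.9, 4.57, 8.82 and 5.55 CPM in control and at 3.28, 4.13, 1.97 and 2.80 CPM in PD-L1high libraries. The groups did not overlap but the adjusted p in edgeR was 0.188 (-1.24, SE 0.34). Ier2 gave -0.74 (SE 0.19, edgeR adjusted p = 0.137) and Fosb -0.92 (SE 0.39, edgeR adjusted p = 0.626). Limma-voom called these 3 genes lower.

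**Figure D3:**
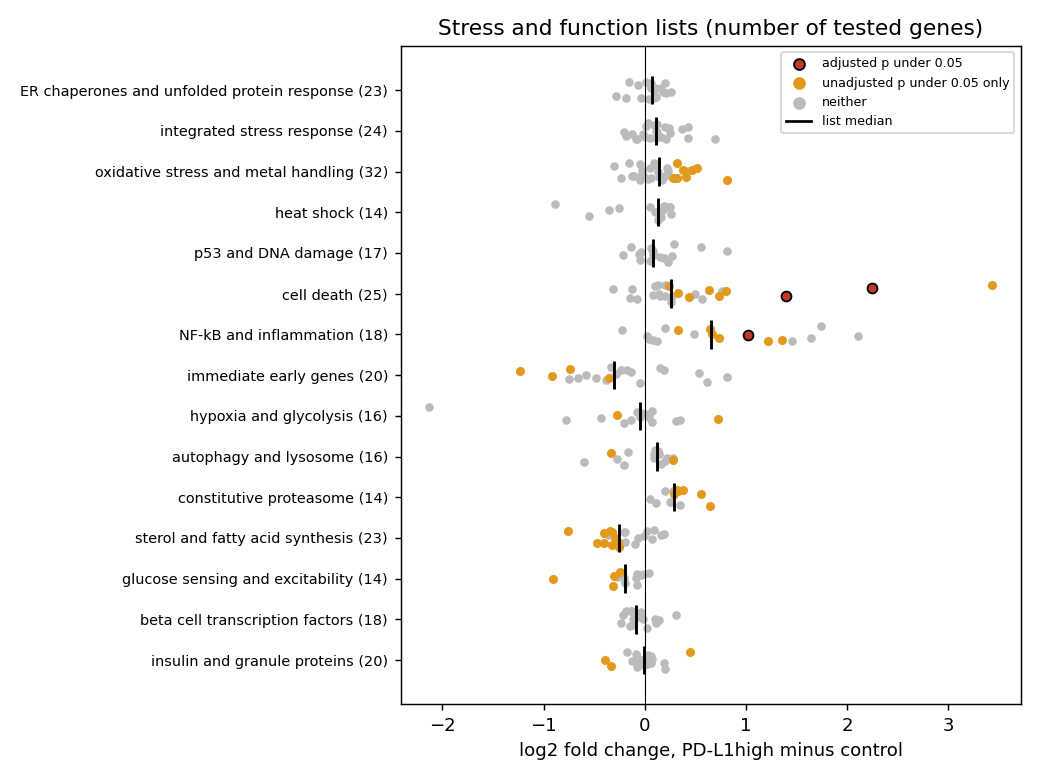
Log2 fold change (PD-L1high minus control) of each tested gene on 10 stress lists and 5 function lists, with the list's median as a black bar and the number of tested genes in brackets. Red points passed the adjusted threshold (Mlkl and Nfkb2 among them), and orange points only an unadjusted p under 0.05.

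None of the 129 tested genes of the lists of beta cell function and general metabolism was called in edgeR (8 were in DESeq2 and 4 in limma-voom), with 11 higher and 17 lower at an unadjusted p under 0.05 and a median of -0.06. Of 23 genes of sterol and fatty acid synthesis 18 were lower, 10 of them at an unadjusted p under 0.05, with a median of -0.25. Among all 16252 tested genes 8610 were lower and 7642 higher, and 3.52% and 4.13% were so at that unadjusted p. Scd2, a stearoyl-CoA desaturase, stood at 165, 199, 202 and 275 CPM in control and at 143, 141, 146 and 170 CPM in PD-L1high libraries (-0.47, SE 0.11, edgeR adjusted p = 0.0714). The groups met only at control replicate 1 and PD-L1high replicate 4, and PD-L1low libraries held 264, 298 and 284 CPM. Idi1, of the mevalonate pathway, ran from 44.3 to 48.7 CPM in control and from 30.04 to 39.3 CPM in PD-L1high libraries (-0.41, SE 0.12, edgeR adjusted p = 0.279). The 14 constitutive proteasome subunits were all above 0, with a median of 0.29 and 6 at an unadjusted p under 0.05. Every interval was inside 2-fold, as were those of 10165 of all 16252 tested genes. Psma5 was the highest of them (0.65, SE 0.16, edgeR adjusted p = 0.0953).

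Of the beta cell identity genes, the 18 of transcription factors had a median of -0.09 and none at an unadjusted p under 0.05, and Pdx1 (-0.03) and Mafa (-0.06) had intervals of -0.25 to 0.19 and -0.35 to 0.22. Ins1 (0.07, interval -0.22 to 0.35) and Ins2 (0.03, interval -0.26 to 0.33) were not called. On the list of glucose sensing and excitability 13 of 14 genes were lower (8610 of all 16252 tested genes were) and 4 of them at an unadjusted p under 0.05. They were the incretin receptor genes Gipr (-0.91) and Glp1r (-0.32), the channel gene Trpm5 (-0.31) and the glucose transporter gene Slc2a2 (-0.24). Slc30a8, the zinc transporter of insulin granules, ran from 731 to 839 CPM in control and from 466 to 736 CPM in PD-L1high libraries (-0.39, SE 0.11, edgeR adjusted p = 0.156). Of the sort genes other than Cd274, Epcam (0.14) and Cd24a (0.15) were not called, and Tfrc, which encodes CD71, gave 0.48 (SE 0.12, edgeR adjusted p = 0.0823) with 223 to 272 CPM in control and 305 to 391.5 CPM in PD-L1high libraries.

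Downward changes were fewer and weaker than upward ones. The 8 fallen genes had log2 fold changes between -1.53 and -0.52 (median -0.90), and 4 fell at least 2-fold. For 6 of the 8 the groups did not overlap, a count given without the share among all tested genes. They were called on the same libraries, so a gap between the groups is no separate support. Without the replicate block St8sia1, Igfbp5, Pcsk4, Insrr and Bmp1 were not called, and 3 genes fell. The balance of higher and lower genes differed with the unadjusted threshold. Below 0.001 there were 171 genes higher and 17 lower, below 0.01 there were 306 and 100, and below 0.05 there were 671 and 572. Without control replicate 2, 69 genes fell, and without any other single library of the 2 groups 2 to 5 did. None of the fallen genes is on an interferon, stress or function list.

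Rasd1, a Ras-like GTPase induced by dexamethasone, had the smallest p of them. Its level was 17.6, 16.3, 18.8 and 17.1 CPM in control and 5.67, 9.70, 7.31 and 5.09 CPM in PD-L1high libraries. The groups were far apart and the log2 fold change was -1.34 (SE 0.22, edgeR adjusted p = 0.0032). In PD-L1low cells it stood at 18.2, 18.8 and 24.1 CPM, within or above the control range. St8sia1, the synthase of the ganglioside GD3, stood at 59.6, 74.1, 68.8 and 79.1 CPM in control and at 40.3, 49.7, 45.8 and 52.96 CPM in PD-L1high libraries. There was no overlap (-0.58, SE 0.11, edgeR adjusted p = 0.012), and PD-L1low libraries held 82.1, 88.2 and 115 CPM, above all control libraries.

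Dnah9, a heavy chain of axonemal dynein, had the largest fall of the 8. It stood at 13.7, 11.6, 11.4 and 11.2 CPM in control and at 4.70, 5.96, 5.03 and 1.45 CPM in PD-L1high libraries (-1.53, SE 0.30, edgeR adjusted p = 0.019), with the control libraries close together and PD-L1high replicate 4 lowest. Insrr, the insulin receptor-related receptor, also fell without overlap. It stood at 329, 260, 348 and 284 CPM in control and at 185, 241, 192 and 193 CPM in PD-L1high libraries, where replicate 2 lay nearest to control (-0.60, SE 0.13, edgeR adjusted p = 0.036). Ptpru, a receptor tyrosine phosphatase, ran from 27.3 to 39.95 CPM in control and from 16.4 to 23.8 CPM in PD-L1high libraries (-0.80, SE 0.16, edgeR adjusted p = 0.024). Bmp1, a secreted procollagen protease, ran from 54.6 to 72.9 CPM and from 34.0 to 49.5 CPM (-0.52, SE 0.11, edgeR adjusted p = 0.038).

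For the other 2 fallen genes the groups overlapped. Igfbp5, an IGF-binding protein, stood at 13.0, 12.2, 14.2 and 31.6 CPM in control and at 7.98, 4.85, 8.33 and 13.4 CPM in PD-L1high libraries, with replicate 4 highest in both groups (-1.01, SE 0.21, edgeR adjusted p = 0.0235). Pcsk4, a proprotein convertase, stood at 31.3, 5.92, 18.1 and 18.5 CPM in control and at 10.1, 4.93, 6.53 and 6.02 CPM in PD-L1high libraries. Its control level ranged more than 5-fold (-1.31, SE 0.27, edgeR adjusted p = 0.024). Rasd1, St8sia1, Igfbp5 and Pcsk4 were also lower in PD-L1high than in PD-L1low cells, in a test that shares the PD-L1high libraries. Rasd1 was the single fallen gene called under all 26 alternatives, and without replicate 3 it was the only one that fell.

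**Figure D4:**
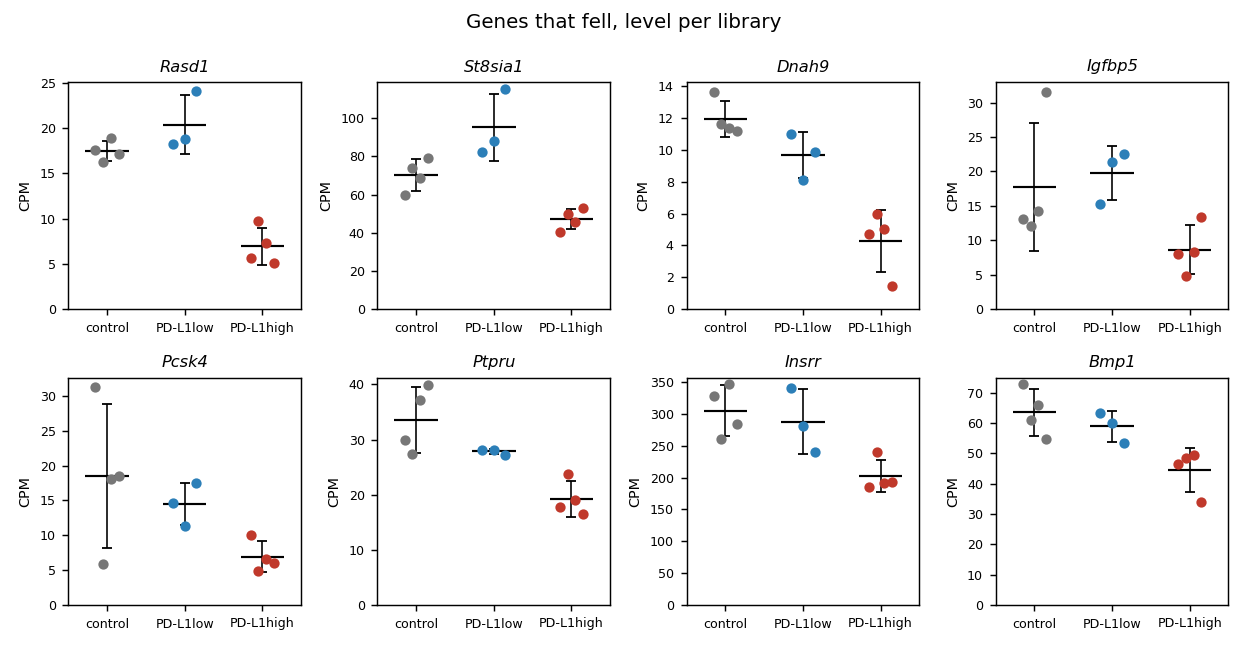
CPM per library (points) of the 8 fallen genes in 4 control, 3 PD-L1low and 4 PD-L1high libraries, with the mean (line) and SD (bar) of each group and the axis from 0. Rasd1 and Dnah9 show the clearest gap between control and PD-L1high libraries, while for Igfbp5 and Pcsk4 the 2 groups overlap.

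Just below the threshold stood further lower genes. The 20 with the smallest p and a control mean of at least 10 CPM began with Hdac5, a class II histone deacetylase, at 41.0, 37.1, 44.6 and 36.8 CPM in control and at 24.7, 33.8, 27.3 and 19.3 CPM in PD-L1high libraries (-0.62, SE 0.14, edgeR adjusted p = 0.0537). Its groups did not overlap. Srgap2, which shapes the actin cytoskeleton, gave -0.89 (SE 0.21, edgeR adjusted p = 0.0764). The potassium channel genes Kcnh6 (-0.67, SE 0.16) and Kcnn3 (-0.41, SE 0.11) followed with adjusted p values of 0.0793 and 0.124. The others were Scd2, Dnm3, Thsd4, Zbtb37, Adgrl3, Gm21992, Col6a6, Gm34759, Fras1, Mum1, Fam210b, Gm43481, Whrn, Ier2, Akap6 and Rec8. DESeq2 with the replicate block called all of the 20 lower except Whrn, Ier2, Akap6 and Rec8. Scd2, Dnm3, Gm34759, Fam210b and Gm43481 were also lower than in PD-L1low cells (edgeR adjusted p under 0.05), in a test that shares the PD-L1high libraries. On the upper side of the threshold the last genes called were Rnf14, Rapgef5 and Pomp, and the next not called were Tbrg1 and Itgb8 among higher genes.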

How the data were processed

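Beta cell RNA-seq of 11 libraries was analysed. Per the methods, the authors made strand-specific, random-primed libraries (NuGEN Ovation Solo), aligned paired reads with STAR 2.5.2b to GRCm38.p6 (GenCode M23) and quantified genes with RSEM (version not given in the sources used here). The deposited expected counts are not normalized and were rounded. The deposited TPM values, made by the authors with RSEM, served for levels and marker sums. Positions are from GENCODE M21. Replicates are independent biological samples per the methods, and groups come from the labels.

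With edgeR 4.0.16 (R 4.3.3), genes were kept by filterByExpr (minimum count 10), TMM-normalized and fitted in a robust quasi-likelihood model of condition and replicate number over all 11 libraries, since the authors' design had a batch term. Adjustment (Benjamini-Hochberg) covered all 16252 genes. The procedure was tested on simulated data. Alternatives used DESeq2 1.42.0, limma 3.58.1 and other normalizations, filters and library sets.

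Members and gene lists were chosen with earlier results of these data known. Genes named were all that fell, all risen genes on no interferon list, the 20 largest risen (at least 10 CPM; given here in part), up to 4 smallest-p genes per list, the 20 smallest-p lower uncalled genes (control mean at least 10 CPM), the sort genes, Ins1 and Ins2, and 6 genes for sequences. Others were chosen after their values were seen. Some called genes are not reported here by name.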

Additional observations from a re-analysis of the deposited data

Results flagged for a closer look

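Within groups of 4 libraries, single values far from the other 3 were looked for with Dixon's ratio. Chance marks about 1 in 20 groups. Over the 161 called genes 51 values in 322 groups stood apart, 31 of them in control replicate 1, which was higher than the other controls in 30 cases, 26 of these for interferon-list genes. Control replicate 1 was the highest control for 108 of 188 tested interferon-list genes (57.45%) and for 6194 of all 16252 tested (38.11%).

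In control replicate 1 the values were 45.37 CPM for Irf1 (others 30.43 to 32.24), 8.454 for Nlrc5 (1.164 to 2.099), 7.368 for Gbp4 (0.2687 to 1.125), 7.678 for Iigp1 (0 to 0.5374) and 3.025 for BC023105 (0.06039 to 0.2687). The same library held 38.16 CPM of Irgm1 (24.82 to 26.77), 16.6 of Tap1 (9.481 to 10.3), 0.8532 of F830016B08Rik (others at 0), 1.008 of Ifi47 (0 to 0.07498), 4.886 of Gbp11 (0.2415 to 0.8957), 7.989 of Gbp10 (0.3019 to 0.6748), 10.39 of Gbp9 (0.2687 to 1.724) and 4.111 of Tgtp1 (0 to 0.2249). Antiviral genes stood out in the same library, with 55.15 CPM for Ifit1 (7.548 to 13.97), 44.75 for Ifit3 (1.57 to 2.687), 36.76 for Oas2 (3.374 to 6.159), 68.8 for Rsad2 (6.401 to 12.63), 53.59 for Ddx60 (16.27 to 21.44), 122.9 for Samd9l (53.5 to 60.64) and 0.9307 for Gm5431 (0.08957 to 0.2249). Ifit1, Ifit3, Oas2 and Rsad2 were not called, with log2 fold changes of 2.41, 3.03, 1.77 and 1.78. In the same library Ppa1 was low at 30.4 CPM (39.05 to 40.19), as were Hmox1 at 43.05 CPM (59.6 to 61.36) and Tbrg1 at 66.78 CPM (79.63 to 82.02).

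In other control libraries, Slc2a2 reached 1227 CPM in replicate 2 (791.4 to 865.2), as did Psmb7 57.66 CPM (39.63 to 42.28) and H2-T23 28.42 CPM (21.68 to 22.73), Gm43302 0.4831 CPM in replicate 3 (others at 0), Igfbp5 31.62 CPM in replicate 4 (12.15 to 14.19), and Psmb10 was low at 8.151 CPM in replicate 4 (13.53 to 14.1). Among PD-L1high libraries, Pigr reached 103.3 CPM (62.5 to 65.63) and Clic5 43.33 CPM (29.6 to 31.32) in replicate 1, Fam210b was low at 81.63 CPM (119.2 to 122.7) in replicate 1, and Insrr reached 240.9 CPM (185.3 to 192.9) in replicate 2. In PD-L1high replicate 4, Dnm3 was at 55.56 CPM (40.65 to 42.6), Gm43302 was at 3.427 CPM (33.49 to 37.85), Tmtc1 at 72.69 CPM (101.7 to 105.5) and Rapgef5 at 6.958 CPM (13.44 to 13.91).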

How the results depend on the processing

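Under each of 26 alternatives, 11 of the 57 risen genes on no interferon list were called (Pigr, Serpinb9, Ly75, Mlkl, Cenpj, Snx10, Tmem140, Gm5431, AW112010, Pla2g16 and Tnfrsf14), as were 59 of the 96 on a list and 1 of the 8 fallen. No called gene reversed. Main counts were 153 risen, 57 of them on no list, 8 fallen and 3 on stress lists. Without the replicate block 124 rose, 38 of them on no list, and 3 fell. Same-numbered control and PD-L1high libraries deviated together with r = 0.408, 0.149, 0.00805 and 0.136. Differently numbered ones gave r from -0.352 to 0.133. With replicate 3 inside that range, the numbers were not shown to pair all samples. Without the filter (27677 genes) 241 rose, 128 on no list, 87 fell and 16 stress genes changed. DESeq2 gave 103 on no list, 36 fallen and 7 stress genes, and limma-voom 95, 45 and 15. At an adjusted p under 0.01 there were 30, 1 and 1, and at least 2-fold changes left 27 on no list and 4 fallen. Leaving out libraries gave 92 to 200 risen, 23 to 109 on no list, 1 to 69 fallen and 1 to 6 stress genes. The highest counts came without control replicate 2 (200 risen, 69 fallen) and the lowest without replicate 3 (92 and 1). The cause was not tested. Counts of fallen genes thus changed with the filter, the method and single libraries, and genes under about 1 CPM rest on few reads. Counting error from duplicate reads was not assessed.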
